A study of Homo sapiens with 8 samples.

Results

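Acetylation of histone H3 at lysine 27 (H3K27ac), a mark of active promoters and enhancers, was followed across the loci of 10 genes of the YAP-TEAD pathway in human colonic epithelial cells with and without CREBBP. The 10 genes were taken by name from 20020 protein-coding genes of GENCODE. They comprise the coactivators YAP1 and WWTR1, the DNA-binding factors TEAD1 and TEAD4, the target genes CCN1, CCN2 and ANKRD1, and AMOTL2, AJUBA and LATS2, whose products act on the pathway. For each gene, every H3K27ac peak overlapping the gene body or the 50 kb on either side was collected from 6 peak lists (hg38). Overlapping peaks were merged across the lists, which gave 264 intervals in the 10 windows, of 143733 in the genome, and 0 of them fell in more than 1 window.

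The cells were HCEC-1CT, a line of normal human colonic epithelial cells kept from senescence by hTERT and the kinase CDK4. ChIP-seq, in which antibody-bound chromatin is sequenced, had been performed on 3 populations labelled WT and 3 labelled CBP KO, called CREBBP-KO here, and the labels list no treatment for either genotype. CREBBP (CBP) is an acetyltransferase that places acetyl groups on histone H3 together with its paralogue EP300, and the knockout was made by CRISPR in cells with a doxycycline-inducible Cas9. By the study's methods the knockout cells used for ChIP-seq were monoclonal, whereas another passage there describes clones pooled per gene beside pooled parental subclones. Effects of clonal origin and of CREBBP loss cannot be told apart in these libraries.

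YAP1 and WWTR1 (TAZ) are transcriptional coactivators without a DNA-binding domain, and reach chromatin mainly through the TEAD factors, which recognize the core GGAATG. The Hippo kinase cascade, ending in LATS1 and LATS2, phosphorylates YAP1 and WWTR1 and keeps them out of the nucleus. In the intestinal epithelium the pathway is known for its part in regeneration after injury, and in cultured cells its activity depends on density, attachment and serum. TEAD-bound enhancers frequently also carry AP-1 sites, here searched as TGANTCA.

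Each peak carries a fold, its enrichment over the local background as given by the authors' peak caller. The value of an interval in a library is its highest fold there, and its percentile is the standing of that peak among all peaks of the same list, with 100 at the top. The lists held 86163 to 93567 peaks in WT and 99008 to 111697 in CREBBP-KO, and hold no reads, so that depth is unknown. Longer lists add weak peaks and move the percentile of a given peak up. Genotypes were therefore compared by the rank shift, the CREBBP-KO minus WT difference of an interval's rank among the tested intervals, expressed in normal-score units, which the length of a list does not change. Distances are from an interval's summit to the canonical start of the gene, negative upstream. Over the 34864 tested intervals, which had a peak in all 6 libraries and a fold of at least 5 in all 3 libraries of a genotype, the median fold was 8.75 to 9.00 in the WT libraries and 9.16 to 9.63 in the CREBBP-KO libraries. Correlations of these scores were 0.894 to 0.917 within a genotype and 0.690 to 0.725 between genotypes. At the promoters, 1 of 5 epithelial and 1 of 5 colonic marker genes had a peak in all 6 lists (EPCAM, with weak peaks, and MUC2), and CDH1, KRT19, CDX1, CDX2, VIL1 and CDH17 had none in any. The epithelial markers KRT8 and KRT18 shared an interval with a peak in 5 lists, at percentiles 32.9 to 57.7. All 4 mesenchymal markers (VIM, ZEB1, PDGFRB and COL1A1) had a peak in all 6 lists, and the leukocyte gene PTPRC had none. The endothelial gene PECAM1 had a peak in 5, at percentiles 1.18 to 39.6. The CREBBP promoter itself had a mean fold of 18.4 in WT and 26.3 in CREBBP-KO and was called higher (shift 0.46, limma adjusted p = 0.047), which says nothing about a frameshift in the coding sequence.

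The loci kept their main acetylated promoters in CREBBP-KO cells, while single distal intervals moved in both directions. The strongest interval of the 10 windows in WT, within an intron of YAP1, lost much of its fold, and an interval upstream of CCN2 and another YAP1 intron fell as well. An interval downstream of AMOTL2 and the AJUBA promoter rose. Of the 264 intervals, 113 had a peak in all 6 libraries and 69 also passed the fold filter and were tested. The filter was met by both genotypes in 59 of them, by WT only in 3 and by CREBBP-KO only in 7. In CREBBP-KO, 9 were higher and 9 lower, 13.0% each, and 51 were not called (limma, Benjamini-Hochberg adjusted p under 0.05). Over all tested intervals 18.6% were called higher and 18.7% lower, so that with flanks of 50 kb the members were called no more often than the genome. Of the 59 that passed in both genotypes, 7 were higher and 7 lower. The share over all intervals that passed in both was not computed, so these counts have no reference in the genome. The median rank shift was 0.18 over the 69 intervals and 0.02 over all tested ones. The counts were 4 and 5 when intervals were ranked by -log10 p (12.4% and 12.9% over all tested intervals), 8 and 5 with the mean fold of an interval's peaks (11.4% and 11.2%), 7 and 5 without WT replicate 2 (15.7% and 15.0%), and 5 and 8 without CREBBP-KO replicate 2 (14.3% and 15.4%).

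By percentile, all 3 CREBBP-KO libraries stood above all 3 WT libraries in 27 of the 69 intervals and below them in 7. The same was true of 34.2% and 15.2% of all tested intervals. By rank among the tested intervals, a scale added after the data were seen, the numbers were 18 and 10, beside 24.8% and 23.3% of all tested intervals. Promoters and distal intervals differed in the genome as a whole. At protein-coding starts 25.9% of tested intervals were higher and 8.98% lower, and away from them 14.9% were higher and 23.6% lower. In the windows, 12 intervals at starts of the members were tested, with 1 higher and 1 lower, and 7 at starts of neighbouring genes, with 1 higher and 0 lower. The 50 tested distal intervals held 7 called higher and 8 lower.

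**Figure D1:**
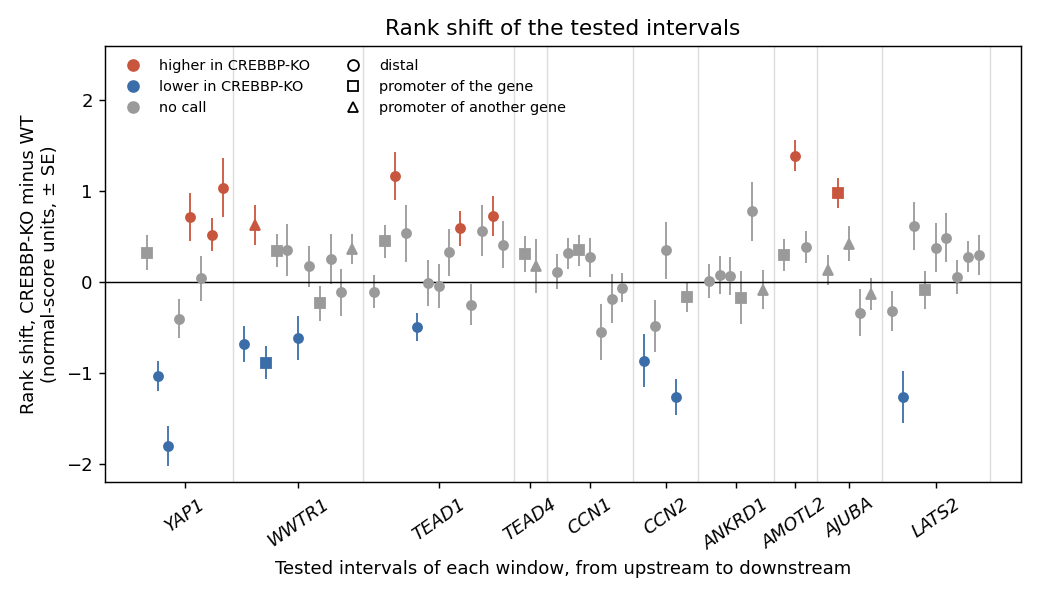
Rank shift (CREBBP-KO minus WT, normal-score units, ± SE) of the 69 tested intervals, ordered within each gene from upstream to downstream; squares are promoters of the gene, triangles promoters of neighbouring genes, circles distal intervals, and red, blue and grey stand for higher, lower and no call. The lowest point is the YAP1 intron interval at -1.80 and the highest the AMOTL2 interval at 1.39, and CCN1, ANKRD1 and TEAD4 have no called interval.

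The promoter intervals, which overlapped 1 kb either side of the canonical start, ranged from the very top of the lists to percentiles of 64.0 to 78.3 at ANKRD1. By mean percentile over the 6 libraries LATS2 stood highest at 99.7, followed by CCN1 at 99.3, AMOTL2 at 99.2, TEAD1 at 99.0, WWTR1 at 98.0, AJUBA at 96.9, YAP1 at 96.7, CCN2 at 92.0, TEAD4 at 85.4 and ANKRD1 at 70.3. Neighbours in this order overlapped in their ranges over the 6 libraries, except for YAP1 above CCN2 and TEAD4 above ANKRD1. All 10 promoters had a peak in each list, and the weakest -log10 q of any was 12.5, at ANKRD1.

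**Figure D2:**
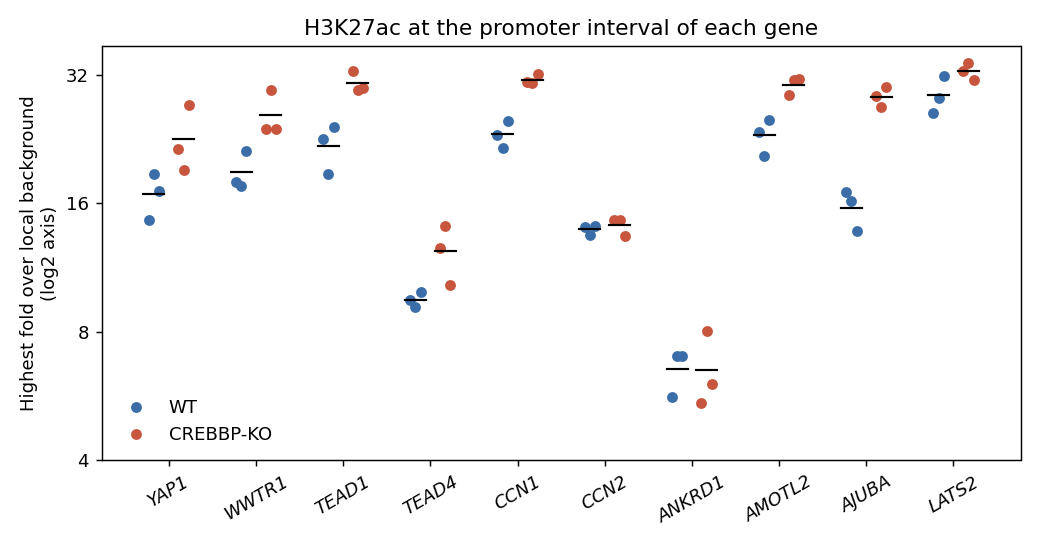
Highest fold over the local background (log2 axis) in the promoter interval of each gene in the 3 WT and the 3 CREBBP-KO libraries, with points for libraries and bars for means. AJUBA shows the widest gap, with 13.8 to 17.0 in WT against 26.9 to 29.97 in CREBBP-KO, while CCN2, ANKRD1 and LATS2 overlap between genotypes.

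YAP1, the principal coactivator of the pathway, lies at chr11:102110447-102233424 (plus strand). Its promoter interval, 13602 bases wide after merging, had folds of 14.6, 18.7 and 17.1 in WT and 21.5, 19.2 and 27.2 in CREBBP-KO. All 3 CREBBP-KO values were above the WT ones on this scale, but the percentiles, 93.3 to 97.6 and 96.3 to 99.0, overlapped, and no shift was called (0.32 ± 0.19 SE, limma adjusted p = 0.183). As its promoter is the reference for the intron intervals described next, the 250 bases before its RefSeq start (GRCh38.p14, chr11:102110197-102110446, plus strand) are shown with the single TEAD core in capitals.
YAP1 promoter: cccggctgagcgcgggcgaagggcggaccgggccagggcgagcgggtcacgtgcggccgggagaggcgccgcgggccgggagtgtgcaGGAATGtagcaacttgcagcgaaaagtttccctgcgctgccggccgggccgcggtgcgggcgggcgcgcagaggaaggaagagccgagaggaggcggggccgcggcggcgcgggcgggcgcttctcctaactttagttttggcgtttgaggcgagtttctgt

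The interval at chr11:102167068-102180290, with its summit in an intron 61.2 kb downstream of the start, was the strongest of all 69 tested intervals in WT. Its folds were 49.6, 42.3 and 38.5 in WT and 24.5, 29.4 and 25.6 in CREBBP-KO. Among all peaks of the WT lists it held positions 2, 4 and 10, and among those of the CREBBP-KO lists positions 1244, 617 and 1294. The genotypes did not overlap, and the shift was -1.80 ± 0.22 (SE, n = 3 per genotype; limma with Benjamini-Hochberg adjustment, adjusted p = 6.42e-06). The interval thus remained a strong peak, at percentiles 98.7 to 99.4, and stood 7th of the 69 by mean CREBBP-KO fold. A nearer intron interval, at chr11:102134679-102149581 and 28.0 kb from the start, had folds of 19.4, 20.0 and 20.8 in WT and 14.1, 13.4 and 12.7 in CREBBP-KO. Its percentiles were 97.4 to 98.2 against 88.4 to 92.7, again without overlap, with a shift of -1.03 ± 0.16 (SE; limma adjusted p = 6.52e-05). Both calls held under every alternative tried for these intervals.

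The 300 bases around the summits of these intervals (hg38, plus strand) are given because they carry the deepest falls at the locus. The window of the stronger interval, chr11:102171490-102171789, contained neither motif, and that of the nearer one, chr11:102138257-102138556, contained 1 TEAD core, set in capitals as CATTCC, the same core on the other strand.
YAP1 intron, 61.2 kb: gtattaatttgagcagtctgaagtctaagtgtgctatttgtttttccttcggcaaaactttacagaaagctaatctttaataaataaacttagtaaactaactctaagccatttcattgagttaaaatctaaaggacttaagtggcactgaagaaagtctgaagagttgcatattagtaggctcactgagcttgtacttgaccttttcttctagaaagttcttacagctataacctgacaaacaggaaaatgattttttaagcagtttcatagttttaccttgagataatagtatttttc
YAP1 intron, 28.0 kb: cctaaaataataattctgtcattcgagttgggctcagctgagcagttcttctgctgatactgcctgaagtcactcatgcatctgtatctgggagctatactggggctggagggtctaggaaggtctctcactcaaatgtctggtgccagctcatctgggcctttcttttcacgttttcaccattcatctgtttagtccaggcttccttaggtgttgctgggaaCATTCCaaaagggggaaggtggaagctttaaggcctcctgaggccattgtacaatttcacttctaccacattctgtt

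Downstream of YAP1 the direction was the opposite. In the flank, 3 weaker intervals were called higher, and a 4th, at 141.9 kb, was not (shift 0.05, limma adjusted p = 0.901). At 134.5 kb from the start (chr11:102244343-102246243) the folds were 6.25, 5.07 and 5.96 in WT and 7.41, 9.05 and 8.18 in CREBBP-KO (shift 0.72 ± 0.26 SE, limma adjusted p = 0.0362). At 159.5 kb (chr11:102267580-102270670) they were 4.39, 4.65 and 2.89 in WT and 6.42, 5.82 and 6.07 in CREBBP-KO, and the interval was tested only because it passed the filter in CREBBP-KO, where it is high (shift 1.04 ± 0.32 SE, limma adjusted p = 0.0153, and 0.90 with 0.0307 without the filter). The genotypes did not overlap at 134.5 kb, where both passed the filter, but neither call was firm. The call at 134.5 kb was lost without WT replicate 2 (adjusted p = 0.132, limma) or without any of the 3 CREBBP-KO replicates (0.0566 to 0.131), and with 3 of the other alternatives. The call at 159.5 kb was lost without WT replicate 3 (0.0558) or without CREBBP-KO replicate 1 (0.0747). Another interval, at 146.2 kb, rose by 0.52 (SE 0.19, limma adjusted p = 0.0299), and the alternatives were not tried for it.

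**Figure D3:**
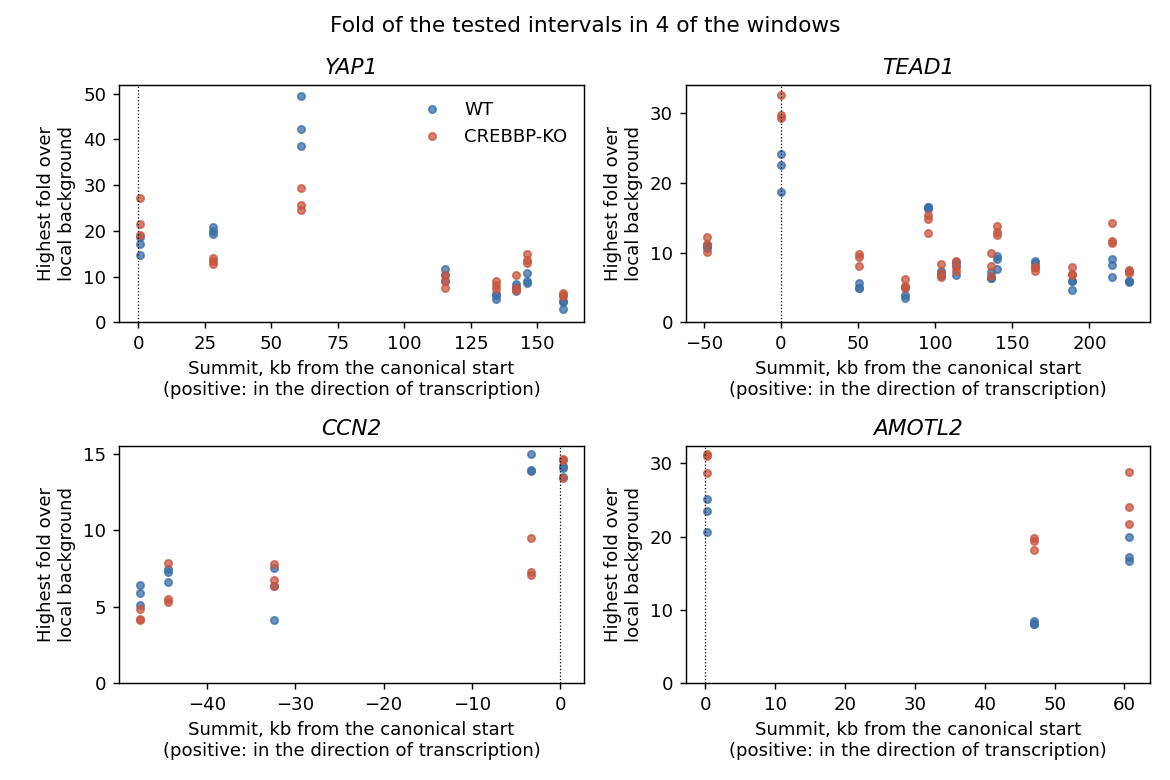
Highest fold over the local background in each library (blue WT, red CREBBP-KO) of the tested intervals of YAP1, TEAD1, CCN2 and AMOTL2 against the distance of the interval's summit from the canonical start, positive in the direction of transcription. At YAP1 the 61.2 kb interval lies at 38.5 to 49.6 in WT against 24.5 to 29.4 in CREBBP-KO, and at AMOTL2 the 47.0 kb interval lies at 8.03 to 8.48 against 18.2 to 19.9.

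WWTR1 encodes TAZ, the paralogue of YAP1, and runs over chr3:149517235-149736714 (minus strand). Its canonical promoter interval had folds of 17.9, 17.6 and 21.3 in WT and 24.0, 29.6 and 23.9 in CREBBP-KO, and the percentiles, 96.5 to 98.4 and 98.2 to 99.4, overlapped slightly (shift 0.35 ± 0.18 SE, limma adjusted p = 0.128). This shift passed the threshold without WT replicate 3 (0.48, adjusted p = 0.0427) and with the mean fold of the peaks (1.25, adjusted p = 0.018), both by limma.

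A second start of WWTR1 behaved otherwise. The interval at chr3:149701256-149706211, at -44.9 kb from the canonical start, had folds of 29.95, 25.3 and 22.7 in WT and 21.9, 18.2 and 19.5 in CREBBP-KO. It was the lower of the promoter calls, without overlap between genotypes (shift -0.89 ± 0.18 SE, limma adjusted p = 0.000801), and the call was lost with the mean fold of the peaks (adjusted p = 0.162). In WT this start stood above the canonical one by mean fold, 26.0 against 18.9, and in CREBBP-KO below it, 19.9 against 25.8. An internal start at 82.0 kb had mean folds of 15.6 ± 3.5 in WT and 15.5 ± 1.2 in CREBBP-KO (SD, n = 3) and was not called (shift -0.23, limma adjusted p = 0.358).

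The strongest distal interval of the WWTR1 window, chr3:149781974-149785690 in the upstream flank, had folds of 23.2, 23.2 and 15.7 in WT and 14.0, 17.6 and 18.8 in CREBBP-KO. It was called lower (shift -0.68 ± 0.20 SE, limma adjusted p = 0.0113), although the genotypes overlapped. The call was lost without WT replicate 1, WT replicate 2 or CREBBP-KO replicate 1 (adjusted p = 0.0579, 0.0765 and 0.0715, limma), and under 3 other alternatives. An intron interval at 53.8 kb was called lower as well (shift -0.62 ± 0.24 SE, limma adjusted p = 0.0468), and the alternatives were not tried for it.

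TEAD1, a DNA-binding partner of YAP1 and WWTR1, spans chr11:12674421-12944737 on the plus strand and had the most peaks of the 10 windows, 53 to 64 in WT against 70 to 81 in CREBBP-KO. Its promoter interval, 26997 bases wide after merging, had folds of 22.7, 18.8 and 24.1 in WT and 32.6, 29.4 and 29.8 in CREBBP-KO. The genotypes did not overlap, and the shift missed the threshold (0.45 ± 0.18 SE, limma adjusted p = 0.0581). It passed without WT replicate 3 (adjusted p = 0.0233, limma).

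Along the introns of TEAD1, 11 tested distal intervals lay between 50.4 and 225.9 kb from the start, and single ones were called in both directions. The interval at chr11:12721654-12729495, 50.4 kb from the start, had folds of 4.95, 4.92 and 5.72 in WT and 9.37, 8.05 and 9.77 in CREBBP-KO (shift 1.17 ± 0.27 SE, limma adjusted p = 0.00187). It was tested only because it passed the filter in CREBBP-KO, where it is high, so that this p is no independent support. Without the filter the shift was 0.76 (limma adjusted p = 0.00502), and ranked by -log10 p the call was lost (adjusted p = 0.0728, limma). At 214.8 kb the folds were 8.20, 6.49 and 9.08 in WT and 11.4, 14.3 and 11.8 in CREBBP-KO (shift 0.73 ± 0.22 SE, limma adjusted p = 0.0121). At 140.0 kb they were 7.61, 9.58 and 9.11 in WT and 13.8, 13.0 and 12.6 in CREBBP-KO (shift 0.59 ± 0.20 SE, limma adjusted p = 0.0205). The genotypes were apart at 214.8 and at 140.0 kb, where both passed the filter. Without WT replicate 2 or CREBBP-KO replicate 2 the 214.8 kb call was lost (adjusted p = 0.0669 and 0.0739, limma). The 140.0 kb call was lost without WT replicate 1, CREBBP-KO replicate 1 or CREBBP-KO replicate 2 (0.0911, 0.0899 and 0.0508) or with the mean fold of the peaks (0.209), and both were lost when ranked by -log10 p.

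The strongest distal interval of TEAD1, at chr11:12762491-12776379 and 95.3 kb from the start, was the one that fell. Its folds were 16.2, 16.6 and 16.6 in WT and 12.8, 15.4 and 14.9 in CREBBP-KO (shift -0.49 ± 0.16 SE, limma adjusted p = 0.0188). The call was lost without WT replicate 2 (adjusted p = 0.0547) or CREBBP-KO replicate 1 (0.0793), and under 3 other alternatives, by limma in each case.

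TEAD4, a paralogue of TEAD1, had the fewest acetylated intervals per kb of the factor genes, 11 in its window (gene at chr12:2959330-3040676, plus strand), of which 2 were tested. Its promoter folds were 9.50, 9.15 and 9.91 in WT and 12.6, 14.2 and 10.3 in CREBBP-KO, with no overlap between the genotypes and no call (shift 0.31 ± 0.20 SE, limma adjusted p = 0.215). The highest distal interval, at -26.1 kb, had folds of 3.01 to 4.31 in WT against 3.95 to 4.51 in CREBBP-KO and did not pass the filter. The other tested interval was the start of TSPAN9 in the downstream flank, with a shift of 0.18.

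CCN1 (CYR61), a secreted matricellular protein and an immediate target of YAP-TEAD, lies at chr1:85580761-85584589 (plus strand). Its promoter interval was 21564 bases wide, also held a start of the neighbour DDAH1, and had its summit at -2.9 kb. The folds were 23.2, 21.6 and 24.9 in WT and 30.8, 30.6 and 32.1 in CREBBP-KO. All CREBBP-KO values lay above all WT values, and the shift was not called (0.35 ± 0.18 SE, limma adjusted p = 0.12). A distal interval 31.7 kb downstream, chr1:85604544-85614971, was stronger than the promoter itself, with folds of 34.7, 23.8 and 27.9 in WT and 38.3, 36.5 and 36.3 in CREBBP-KO. Its percentiles overlapped and were at least 99.3 in every library (shift 0.27 ± 0.22 SE, limma adjusted p = 0.335). By mean fold it was second to the YAP1 intron interval in WT and the strongest of the 69 in CREBBP-KO. None of the 7 tested CCN1 intervals was called, with shifts from -0.55 to 0.35. The lowest was at 37.4 kb, in an interval that passed the filter in WT only.

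CCN2 (CTGF), a matricellular protein related to CCN1 and a classical YAP-TEAD target, lies at chr6:131948176-131951372 (minus strand). The 250 bases before its start (RefSeq, GRCh38.p14, chr6:131951373-131951622, minus strand) held 3 TEAD cores and are shown with these in capitals. No other member promoter window searched held as many, and windows were available for 7 of the 10 genes.
CCN2 promoter: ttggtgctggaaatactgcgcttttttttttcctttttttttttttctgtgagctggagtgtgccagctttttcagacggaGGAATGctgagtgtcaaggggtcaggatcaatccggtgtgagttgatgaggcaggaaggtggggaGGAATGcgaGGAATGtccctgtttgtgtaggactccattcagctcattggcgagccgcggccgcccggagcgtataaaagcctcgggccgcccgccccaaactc

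Acetylation of this promoter differed by less than the spread between libraries. The folds were 14.1, 13.5 and 14.2 in WT and 14.6, 14.6 and 13.4 in CREBBP-KO, and the mean percentiles were 92.4 ± 0.09 and 91.6 ± 1.9 (SD, n = 3; exact permutation test, p = 0.7). The difference was -0.72 points, -2.06 when lists were cut to the same length and 0.30 without CREBBP-KO replicate 3. With 3 libraries against 3, such a test cannot give a p below 0.1. The adjacent interval told the genotypes apart. At chr6:131953341-131956058, at -3.3 kb, the folds were 13.9, 15.0 and 14.0 in WT and 9.47, 7.05 and 7.28 in CREBBP-KO. The percentiles, 92.0 to 94.4 in WT, were 74.3 to 84.4 in CREBBP-KO (shift -1.26 ± 0.20 SE, limma adjusted p = 8.47e-05), and the call held under every alternative tried for this interval. The window around its summit (hg38, chr6:131954544-131954843, plus strand), shown as the site of this fall, held 1 TEAD core, read as CATTCC, and no AP-1 motif.
CCN2 upstream, -3.3 kb: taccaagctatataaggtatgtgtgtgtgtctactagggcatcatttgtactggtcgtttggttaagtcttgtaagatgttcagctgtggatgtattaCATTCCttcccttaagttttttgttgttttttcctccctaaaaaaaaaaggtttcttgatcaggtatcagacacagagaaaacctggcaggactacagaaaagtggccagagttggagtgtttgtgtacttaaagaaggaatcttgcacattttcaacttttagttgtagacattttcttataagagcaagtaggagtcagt

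Further upstream of CCN2, the interval at chr6:131997880-132000155 (-47.6 kb) had folds of 5.87, 6.41 and 5.13 in WT and 4.14, 4.84 and 4.18 in CREBBP-KO. It was tested only because it passed the filter in WT, where it is high, and was called lower (shift -0.86 ± 0.29 SE, limma adjusted p = 0.0247) with overlapping percentiles. Leaving out WT replicate 1 or WT replicate 2 ended the call (adjusted p = 0.0913 and 0.136, limma), as did 2 other alternatives, the absence of the filter among them (0.0808). The interval at -32.4 kb, which passed the filter in CREBBP-KO only, and that at -44.4 kb were not called (shifts 0.35 and -0.49). Only the interval at -3.3 kb thus fell at CCN2 among those that passed the filter in both genotypes.

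ANKRD1, a nuclear ankyrin-repeat protein first known from striated muscle and widely used as a YAP readout, lies at chr10:90912096-90921087 (minus strand). It had the weakest promoter of the 10. The folds were 5.62, 7.04 and 7.03 in WT and 5.44, 8.01 and 6.02 in CREBBP-KO, the percentiles overlapped, and no shift was called (-0.17 ± 0.29 SE, limma adjusted p = 0.672). The bases before its start (RefSeq, GRCh38.p14, chr10:90921088-90921337, minus strand) held 2 TEAD cores and 1 AP-1 motif (TGATTCA), all in capitals, the latter the only such motif in the member promoter windows searched.
ANKRD1 promoter: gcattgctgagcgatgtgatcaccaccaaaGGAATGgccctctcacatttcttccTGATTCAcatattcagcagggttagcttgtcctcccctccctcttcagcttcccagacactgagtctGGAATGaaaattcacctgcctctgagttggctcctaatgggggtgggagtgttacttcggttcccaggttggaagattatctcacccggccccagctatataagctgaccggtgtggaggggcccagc

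Stronger acetylation lay upstream of ANKRD1. The interval at chr10:90963056-90972195 (-48.6 kb) had folds of 12.3, 12.2 and 16.3 in WT and 17.4, 13.7 and 14.6 in CREBBP-KO, with overlap and a shift of 0.02 ± 0.19 (SE, limma adjusted p = 0.956). With the mean fold of the peaks it passed the threshold (shift 1.14, limma adjusted p = 0.0223). The interval at -9.7 kb had mean folds of 13.5 in WT and 15.8 in CREBBP-KO (shift 0.07). All 6 tested intervals at ANKRD1 were without a call, the largest shift being 0.78 ± 0.32 (SE, limma adjusted p = 0.0607) at 36.4 kb downstream. That interval was tested only because it passed the filter in CREBBP-KO, where it is high. Its folds were 3.6, 5.8 and 6.2 in WT and 7.1, 7.8 and 7.0 in CREBBP-KO.

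AMOTL2, an angiomotin-like scaffold that binds YAP1 and is itself a YAP-TEAD target, lies at chr3:134355347-134375479 (minus strand). Its promoter interval was 23239 bases wide after merging and covered most of the gene, with its highest summit at 0.2 kb. The folds were 23.5, 20.7 and 25.1 in WT and 28.7, 31.0 and 31.2 in CREBBP-KO, apart between genotypes but without a call (shift 0.30 ± 0.18 SE, limma adjusted p = 0.187). The interval at chr3:134324491-134337830, 47.0 kb downstream of the start and outside the gene, showed the largest rise of the 69. Its folds were 8.03, 8.48 and 8.05 in WT and 18.2, 19.4 and 19.9 in CREBBP-KO, with means of 8.18 ± 0.25 and 19.1 ± 0.87 (SD, n = 3). It stood at percentiles 76.3 to 79.1 in WT against 96.3 to 96.4 in CREBBP-KO (shift 1.39 ± 0.17 SE, limma adjusted p = 5.77e-06), and the call held under every alternative tried for this interval. The summit window (hg38, chr3:134327276-134327575, plus strand), shown as the strongest gain, contained neither motif, while the 250 bases before the canonical start (RefSeq, GRCh38.p14, chr3:134374448-134374697, minus strand) contained 1 TEAD core, read as CATTCC.
AMOTL2 downstream, 47.0 kb: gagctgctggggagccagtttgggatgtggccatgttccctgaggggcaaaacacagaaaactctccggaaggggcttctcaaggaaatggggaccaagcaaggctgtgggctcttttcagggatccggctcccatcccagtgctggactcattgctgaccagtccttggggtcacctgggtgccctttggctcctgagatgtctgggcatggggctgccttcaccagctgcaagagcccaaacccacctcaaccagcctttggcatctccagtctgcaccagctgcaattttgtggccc
AMOTL2 promoter: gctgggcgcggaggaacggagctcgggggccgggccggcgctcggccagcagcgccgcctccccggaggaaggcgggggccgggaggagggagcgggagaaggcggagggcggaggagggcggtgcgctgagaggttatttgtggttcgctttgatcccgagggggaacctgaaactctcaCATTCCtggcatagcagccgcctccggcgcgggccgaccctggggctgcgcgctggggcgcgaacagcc

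The next interval beyond it, chr3:134308088-134319154 at 60.7 kb, was the strongest distal one at AMOTL2, with folds of 16.7, 19.9 and 17.2 in WT and 21.7, 28.8 and 24.0 in CREBBP-KO. The percentiles overlapped by little and the shift was not called (0.39 ± 0.18 SE, limma adjusted p = 0.0928). It passed the threshold without WT replicate 2 (adjusted p = 0.0374, limma) and with the mean fold of the peaks (adjusted p = 0.00827).

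AJUBA, a LIM-domain protein that binds and restrains LATS kinases at junctions, lies at chr14:22971177-22982551 (minus strand) and was the only member whose canonical promoter was called. The folds were 17.0, 16.2 and 13.8 in WT and 28.5, 26.9 and 29.97 in CREBBP-KO, with means of 15.6 ± 1.7 and 28.5 ± 1.5 (SD, n = 3). The percentiles, 91.7 to 95.7 and 99.1 to 99.5, did not overlap (shift 0.98 ± 0.17 SE, limma adjusted p = 0.000163), and the call held under every alternative tried for this interval. The interval was 10214 bases wide after merging, covered most of the gene and also held a start of another protein-coding gene. None of the other tested intervals in the window was called. The start of HAUS4 rose without overlap, from a mean fold of 9.70 to 13.5 (shift 0.43, limma adjusted p = 0.0857). The starts of C14orf93 and PRMT5 had shifts of 0.13 and -0.13, and the 1 tested distal interval, 42.2 kb downstream, -0.34 (limma adjusted p = 0.321).

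LATS2, the kinase that phosphorylates YAP1 and WWTR1 and a YAP-TEAD target in negative feedback, lies at chr13:20973036-21061586 (minus strand) and had the highest promoter of the 10. The folds were 26.1, 28.2 and 31.9 in WT and 32.7, 34.1 and 31.2 in CREBBP-KO, with overlap (shift -0.09 ± 0.21 SE, limma adjusted p = 0.759). The strongest distal interval, chr13:20995471-21001549 in an intron, had folds of 14.8, 15.9 and 15.1 in WT and 21.7, 17.3 and 21.0 in CREBBP-KO, and was not called (shift 0.28, limma adjusted p = 0.2). The 1 called interval lay upstream at -18.7 kb (chr13:21078692-21081567). It had folds of 9.21, 8.24 and 8.28 in WT and 4.52, 6.55 and 4.95 in CREBBP-KO, was tested only because it passed the filter in WT, where it is high, and fell by 1.27 ± 0.29 (SE, limma adjusted p = 0.00169). Without the filter it fell by 0.80 (limma adjusted p = 0.00501). Ranked by -log10 p, it missed the threshold (adjusted p = 0.0527, limma).

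Peaks in the windows numbered 223, 203 and 197 in the WT libraries and 260, 253 and 222 in the CREBBP-KO libraries, or 208 ± 14 against 245 ± 20 (SD, n = 3; ratio 1.18, exact permutation test, p = 0.2). As a share of the list they made up 0.229% and 0.233% (ratio 1.02, exact permutation test, p = 0.6). The windows of TEAD1, TEAD4 and LATS2 held more peaks in every CREBBP-KO library than in any WT library, beside 21% of the windows of all protein-coding genes with a peak, and 0 held fewer, beside 1.91%. For TEAD4 these were 7, 5 and 4 peaks in WT and 11 in each CREBBP-KO library, and for LATS2 19, 20 and 22 against 35, 34 and 27. The share of the window inside peaks was higher without overlap in 6 of the 10 genes (TEAD1, TEAD4, CCN1, ANKRD1, AMOTL2 and LATS2) and lower in 0, beside 34% and 9.81% of all windows. TEAD1 went from 31.2% ± 1.5 to 40.7% ± 3.5 and LATS2 from 20.7% ± 0.6 to 26.2% ± 1.1 (SD, n = 3; exact permutation tests, p = 0.1 each). YAP1 was the gene with the largest decline in mean, from 35.4% ± 2.5 to 31.4% ± 1.3, with overlap (exact permutation test, p = 0.2).

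**Figure D4:**
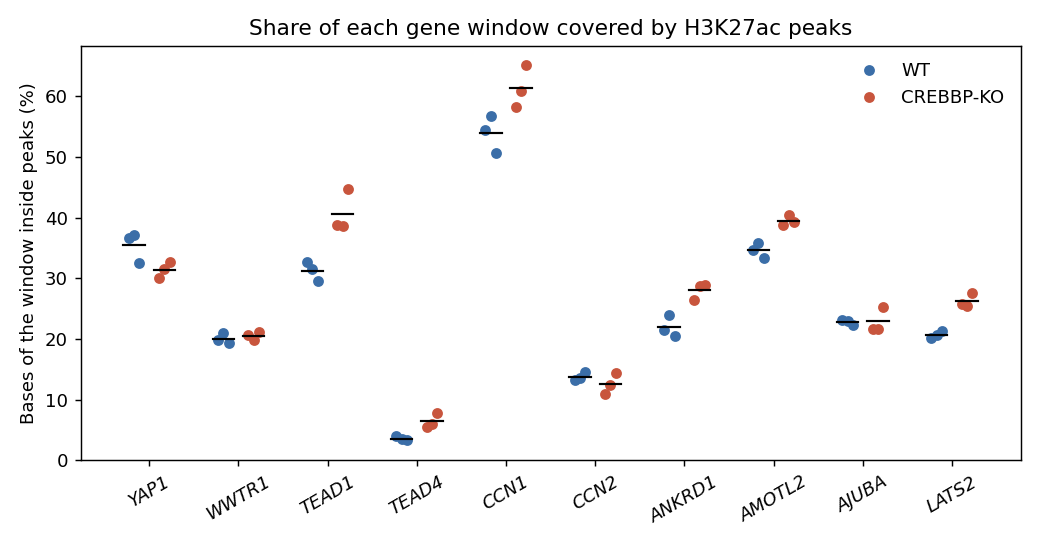
Share of the bases of each gene window (gene body and 50 kb either side) inside H3K27ac peaks in each library, with bars for the means. CCN1 has the densest window, 50.6% to 65.2%, and TEAD4 the sparsest, 3.26% to 7.76%.

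Intervals with a peak in all 3 libraries of a single genotype were rare. In CREBBP-KO alone there were 9 of the 264 (3.41%, beside 2.66% of all intervals), at TEAD1, TEAD4, CCN1, AMOTL2 and ANKRD1, and in WT alone 1 (0.379%, beside 1.08%), at AJUBA. All 10 were distal and weak. The highest by percentile, in an intron of TEAD4 39.4 kb from the start, had folds of 4.75, 5.01 and 4.18 in CREBBP-KO. The interval upstream of TEAD1 at -32.1 kb had folds of 4.42, 3.79 and 4.38, and that in a TEAD1 intron at 60.7 kb 4.62, 3.17 and 2.85. Those downstream of CCN1 at 22.9 kb and of AMOTL2 at 25.4 kb had folds of 3.50 to 3.96 and 3.50 to 4.18, and that upstream of ANKRD1 at -14.5 kb 3.12 to 4.98. The AJUBA interval, at -46.3 kb, had folds of 3.20, 3.00 and 2.65 in WT.

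The TEAD core and the AP-1 motif were searched on both strands in the 300 bases around each summit, that of the interval's highest peak in any library. Of the 50 tested distal intervals in the windows, 9 held the core (18%, beside 16.3% of all filtered distal intervals) and 8 the AP-1 motif (16%, beside 11.4%). The core was in 4 of the 8 called lower, 1 of the 7 called higher and 4 of the 35 not called. These shares were not computed over all distal intervals called lower or higher. The split thus has no reference in the genome and was not tested. The 4 called lower with a core were the YAP1 interval at 28.0 kb, the CCN2 interval at -3.3 kb and both called WWTR1 distal intervals. In promoter windows from RefSeq (250 bases before to 50 after the start), 7 of the 10 genes matched, with 10 windows, and 6 of these held the core, beside 14% of all promoter windows. TEAD1, TEAD4 and CCN1 were not matched. A match to these letters is a description and not a bound site.

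Beyond the 10 genes, the promoters of 37 other genes of the pathway were read from the same fit. Of these, 34 could be tested, and 11 were higher, 2 lower and 21 not called, or 32.4% and 5.88%, beside the 25.9% and 8.98% of all tested starts. Of the 32 that passed the filter in both genotypes, 9 were higher and 2 lower, without a share computed over all such starts. WWC1 and TGFB2 were tested only because they passed it in CREBBP-KO, where they are high. The median shift was 0.29, and 0.20 over all tested starts. Among kinases and scaffolds upstream of YAP1, 7 of 15 were higher (STK4, SAV1, WWC1, FRMD6, AMOTL1, TAOK1 and MAP4K4) and 0 lower. The share called higher was 46.7%, beside 25.9% of all tested starts, and the difference was not tested. Of the 14 that passed the filter in both genotypes, 6 were higher. WWC1 (KIBRA), an activator of LATS kinases, had mean folds of 3.53 in WT and 7.03 in CREBBP-KO (shift 1.69 ± 0.33 SE). AMOTL1, a relative of AMOTL2, rose from 7.52 to 16.8 (shift 1.34 ± 0.20 SE, limma adjusted p = 4.33e-05). At AMOTL1, which passed the filter in both genotypes, all 3 CREBBP-KO percentiles stood above WT, as in 34.2% of all tested intervals. A group of 4 tested genes held the DNA-binding factors TEAD2 and TEAD3 and the cofactors VGLL3 and VGLL4. Of these, VGLL3 was higher and TEAD3 lower, the latter from a mean fold of 25.6 to 23.5 (shift -0.53 ± 0.18 SE, limma adjusted p = 0.0244). Of 15 other reported targets, 3 were higher and 1 lower (20.0% and 6.67%). GADD45A, a stress-response gene, rose from 17.9 to 35.3 (shift 1.23 ± 0.18 SE, limma adjusted p = 4.13e-05), DOCK5, an exchange factor for Rac, from 7.45 to 13.5 (shift 0.97, limma adjusted p = 0.00134), and RBMS3, an RNA-binding protein, fell from 19.3 to 17.0 (shift -0.52, limma adjusted p = 0.0144). The mesenchymal markers ZEB1 and COL1A1 also rose at their promoters (shifts 0.85 and 0.87, limma adjusted p = 0.000823 and 0.00084), and VIM and PDGFRB were not called. The colonic marker MUC2 had mean folds of 4.58 in WT and 10.1 in CREBBP-KO and likewise passed the filter in CREBBP-KO alone (shift 1.63), and EPCAM was too weak to be tested. The part of such differences between the cells in the values above was not tested.

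**Figure D5:**
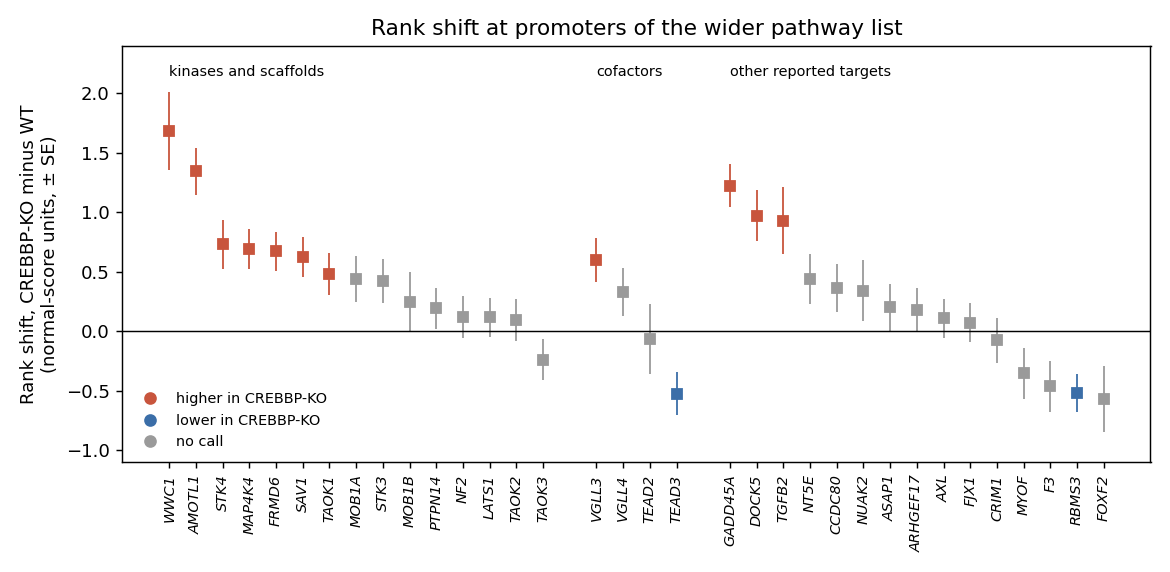
Rank shift (CREBBP-KO minus WT, normal-score units, ± SE) at the 34 tested promoters of the wider pathway list, grouped by role and ordered by shift. The group marked cofactors holds the DNA-binding factors TEAD2 and TEAD3 beside VGLL3 and VGLL4. WWC1, which passed the fold filter in CREBBP-KO alone, stands highest at 1.69, and TEAD3 and RBMS3 are the 2 called lower.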

How the data were processed

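Per the labels and methods, the authors ran the nf-core ChIP-seq pipeline 2.0.0 (with BWA among the tools in the submitters' notes) on hg38, and MACS2 gave a narrow peak list for every library, unpooled. Which input served as control, and whether reads had been downsampled by then, is not given in the sources used here. For every peak the authors' files hold the fold over local background (a linear ratio), the deposited -log10 p and the deposited -log10 q, the lowest of the latter being 1.3. Without reads, the study's test on read counts was not repeated, and the inputs were not analysed here.

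Overlapping or touching peaks were merged in Python, and bedtools 2.31.1 gave the same number of intervals. Normal scores of the rank of the highest fold were fitted with limma 3.58.1 (R 4.3.3, eBayes with a trend), adjusted by Benjamini-Hochberg over 34864 intervals. Exact permutation tests, two-sided, served for single values. Genes came from GENCODE release 44 and promoter sequences from RefSeq (GRCh38.p14). On all 24 chromosomes no peak ran past the end of hg38. Other steps used Python 3.11.15, numpy 2.4.6, pandas 2.3.3 and scipy 1.17.1, and the fit was tested on simulated data. The 3 libraries of a genotype are independent populations of the same line, so p-values measure the spread between such populations.

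Members, gene lists and tests were chosen with earlier results of these data known. The rule for naming took every promoter, each gene's highest distal interval, the 6 largest called distal shifts in each direction, the 6 highest intervals of a single genotype and, from the wider list, the 4 largest called shifts in each direction. Other named intervals were chosen after their values were seen. Alternatives changed the fold filter, ranking, height, matching, list length, model, flank and start window, or omitted a library. For single shifts the filter was only removed, not set to other values, and matching by summits was not tried.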

Additional observations from a re-analysis of the deposited data

How the results depend on the processing

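The main counts of 9 higher and 9 lower intervals were 9 and 9 with the replicate block in limma. Deviations of same-numbered libraries from their genotype means correlated at 0.011, 0.014 and 0.028, so the numbers were not taken to pair the samples. Ranked by -log10 p the counts were 4 and 5, with the mean fold of the peaks 8 and 5, and with flanks of 100 kb, where 105 intervals were tested, 20 and 15 (19.0% and 14.3%, beside 18.6% and 18.7% of all tested intervals). Leaving out each library in turn gave 5 to 11 higher and 5 to 10 lower. All other filters, matching rules, list lengths and the fit without a trend gave counts within 1.5 times of 9, but the filter changed the number tested. With a fold of at least 10, 6 and 6 of 34 were called (17.6% each, beside 22.4% and 21.5% of all tested intervals). Without a fold filter, 11 and 8 of 113 were called (9.73% and 7.08%, beside 12.5% and 12.1%). The ratio of peaks in the windows was 1.18, and 1.02 as a share of the list. Leaving out each library gave ratios of 1.14 to 1.24. Of 360 alternative values of the named shifts, 307 kept their direction and side of the threshold, 35 were no longer past it and 6 newly passed it. The other 12, from 8 shifts, changed sign without a call on either side. By -log10 p these were the WWTR1 promoter (-0.061), the WWTR1 start at 82.0 kb (0.053) and the ANKRD1 promoter (0.294). With the mean fold of the peaks they were CCN1 at 31.7 kb (-0.619), the CCN2 promoter (0.178) and LATS2 at 63.3 kb (-0.058). With each library left out, the WWTR1 start at 82.0 kb ranged from -0.373 to 0.047, the ANKRD1 promoter from -0.433 to 0.001, ANKRD1 at -48.6 kb from -0.138 to 0.195 and the LATS2 promoter from -0.272 to 0.076. Of 100 alternative promoter percentile differences, 84 kept their sign within the spread between libraries, 6 moved by more, and 10 changed sign. Those were WWTR1 by -log10 p (1.538 to -0.030), CCN2 with a library left out (-1.523 to 0.298), ANKRD1 with lists of the same length (-2.748) or a library left out (-1.593 to 3.801), and LATS2 by -log10 p (-0.059), with lists of the same length (-0.008) or a library left out (-0.131 to 0.134). The cause was not tested. Peak lists without reads show rank within a library, and a uniform change over all peaks would not show, and intervals with a peak in fewer than 6 libraries were not tested.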
